A study of Mus musculus with 20 samples.

Results

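Mouse embryonic fibroblasts cultured with serum of irradiated mice were compared between the 2 irradiated sets of the study: 5 cultures with serum from mice given 8 Gy (titled 20days) against 5 cultures with serum from mice given 4 Gy (titled 10days), 10 of the 20 arrays in all. The members were chosen by the titles of the samples and by no measured value. The serum donors were female C3H/HeN mice, an inbred strain, and the irradiation is called L/MDR in the titles, an abbreviation not spelled out there. Every culture of the study, with or without irradiated serum, was grown for 24 hours. The other 10 cultures had serum of non-irradiated mice (0 Gy), 5 in each set, and are used only for comparison. Strain, passage and sex of the fibroblasts are not labelled. What the days stand for is not labelled either, nor whether a replicate is a culture of its own or whether serum was pooled. All p-values therefore rest on the spread between arrays, which could be technical.

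Dose, days, slide and scan day changed together between both irradiated sets: the 4 Gy arrays lay on slides 2 and 3 of scan day 1, and the 8 Gy arrays on slides 6 and 7 of scan day 2. What belongs to the dose, to the days, to the batch of cells or to the arrays cannot be told apart in this comparison. For that reason the set difference among cultures with control serum is given too, mostly near the end. Levels are log2 processed signals minus the 75th percentile of the array, so a level of 0 is the brightness of that percentile. A difference is the mean level with 8 Gy serum minus the mean level with 4 Gy serum on that log2 scale, with the standard error (SE) of the fit. "Higher" and "lower" are used for genes with an adjusted p under 0.05 (limma, Benjamini-Hochberg adjustment over all 20217 genes tested). Where the 5 values of each group are given for a gene, every array of 1 group lay above every array of the other unless overlap is stated.

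Embryonic fibroblasts are mesenchymal cells grown out of minced embryos. They make the collagens, elastin and fibronectin of the extracellular matrix, and keep the Hox gene code of the body region they come from. Macrophages are phagocytes that carry the leukocyte phosphatase CD45 (Ptprc) and live on signals through the receptor of macrophage colony-stimulating factor (Csf1r). Their lineage is set by the transcription factor PU.1, the product of Spi1. Osteoclasts are the bone-resorbing cells that arise when precursors of that lineage fuse, and adipocytes are the fat-storing cells that mesenchymal precursors form under the nuclear receptor Pparg.

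Many genes with large positive differences were genes of macrophages and osteoclasts, and the promoters of 4 genes of myeloid cells are shown because they hold the letters that PU.1 binds. Each is the RefSeq window of 300 bases around the start of the gene on GRCm38.p6, written 5′ to 3′ on the strand of the gene, with the letters GAGGAAGT, or the same letters read from the other strand, ACTTCCTC, in capitals. Pirb, an inhibitory paired immunoglobulin-like receptor of myeloid cells, has its window at chr7:3720333-3720632 (minus strand). The window of Ctss, a lysosomal cysteine protease of antigen-presenting cells, is chr3:95526536-95526835 (plus strand), that of Cd53, a tetraspanin of leukocytes, is chr3:106790100-106790399 (minus strand) and that of C1qc, a chain of complement component C1q, is chr4:136892865-136893164 (minus strand).
Pirb: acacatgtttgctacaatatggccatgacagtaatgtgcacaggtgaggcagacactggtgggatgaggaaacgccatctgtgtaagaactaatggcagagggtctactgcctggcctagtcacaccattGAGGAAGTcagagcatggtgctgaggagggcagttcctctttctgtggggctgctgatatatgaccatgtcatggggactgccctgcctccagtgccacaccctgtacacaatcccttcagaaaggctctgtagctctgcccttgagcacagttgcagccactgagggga
Ctss: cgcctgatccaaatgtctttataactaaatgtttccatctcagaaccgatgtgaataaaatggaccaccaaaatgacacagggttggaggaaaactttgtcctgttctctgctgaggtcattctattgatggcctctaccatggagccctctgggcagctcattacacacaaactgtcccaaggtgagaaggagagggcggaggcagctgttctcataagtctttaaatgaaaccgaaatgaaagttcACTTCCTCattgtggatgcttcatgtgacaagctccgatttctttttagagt
Cd53: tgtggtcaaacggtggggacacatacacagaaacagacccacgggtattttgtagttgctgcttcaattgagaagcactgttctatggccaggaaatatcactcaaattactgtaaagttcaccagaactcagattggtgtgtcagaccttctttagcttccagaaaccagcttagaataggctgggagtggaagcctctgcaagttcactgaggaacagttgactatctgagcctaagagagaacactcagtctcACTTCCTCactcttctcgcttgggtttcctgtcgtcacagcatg
C1qc: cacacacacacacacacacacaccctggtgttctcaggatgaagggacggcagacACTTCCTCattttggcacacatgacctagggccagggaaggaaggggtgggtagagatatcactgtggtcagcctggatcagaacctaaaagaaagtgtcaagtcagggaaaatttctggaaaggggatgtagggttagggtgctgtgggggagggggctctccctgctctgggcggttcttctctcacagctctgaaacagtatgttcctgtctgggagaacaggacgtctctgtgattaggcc
These letters on either strand were found in 3.2% of all 32851 promoter windows. Counted by gene, 3.43% of the 10312 tested genes with a symbol and a window held them in at least 1 window. Among genes with a symbol that were at least 8-fold higher with 8 Gy serum, 154 of 208 had a window and 22 of these (14.3%) held the letters, a set chosen by its difference, so that the share is a description with no test. Of genes at least 8-fold lower, 33 of 50 had a window and 2 of these (6.06%) held the letters. Among genes with a window, 4 of 16 Fc and paired myeloid receptors (25%), 2 of 15 macrophage markers (13.3%) and 0 of 5 osteoclast markers held them. A match of letters is not a binding site, and a window without them says nothing about the factor.

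The 10 arrays resembled each other closely within a set. Correlations of levels over all genes tested lay between 0.992 and 0.998 among 4 Gy arrays and between 0.992 and 0.996 among 8 Gy arrays, and between 0.954 and 0.965 for an array of each set. The 75th percentile of the processed signal was 1104 ± 102 intensity units with 4 Gy serum and 939 ± 57.1 with 8 Gy serum (mean ± SD, n = 5 arrays each). Between 63.0% and 67.2% of probes were well above background on the 4 Gy arrays and between 61.0% and 63.4% on the 8 Gy arrays. The median coefficient of variation of replicate spots was 10.7% to 12.1% and 12.2% to 16.3%, against 20.4% to 32.5% on the arrays with control serum of the 20-day set. All 20 fibroblast markers listed were well above background on all 10 arrays, and their summed signal lay at 1569 to 1734 times the 75th percentile with 4 Gy serum and 1374 to 1498 times with 8 Gy serum.

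With 8 Gy serum, genes of macrophages, osteoclasts and fat cells were for the most part higher, and genes of striated muscle, elastic fibres, collagens, fetal growth and the Hox clusters for the most part lower. Between the control sets 37.0% of all genes were higher and 29.4% lower in the 20-day set. Osteoclast markers were higher there in 9 of 11 (2 lower) and adipocyte markers in 10 of 12. Striated muscle markers were lower in 13 of 16 (2 higher), fibrillar collagens in 13 of 15 and HoxA genes in 3 of 11 (2 higher). Of 20217 genes, 11732 (58.0%) differed between both irradiated sets, 5912 (29.2%) higher and 5820 (28.8%) lower with 8 Gy serum, and for 10420 (51.5%) the values of both sets did not overlap. The split by direction differed with the size of the difference. At least 2-fold differences were found for 1106 genes higher (5.47%) and 1830 lower (9.05%). At least 4-fold differences were found for 377 genes higher (1.86%) and 358 lower (1.77%), and at least 8-fold differences for 242 higher (1.2%) and 63 lower (0.312%). The median over all genes was 0.002. With background correction by normexp in place of the processed signal, 9766 genes passed, 6104 higher and 3662 lower. Averaging the arrays of 1 slide, which leaves 2 values a group, gave 6706 genes. Of the genes tested, 103 were above background on all 5 arrays with 8 Gy serum and on no array with 4 Gy serum, and 372 the other way round.

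Macrophage genes were higher with 8 Gy serum throughout the list. All 22 tested of 26 listed macrophage markers were higher, where 29.2% of all genes were, with a median difference of 3.95 against 0.002 over all genes, and differences between 2.92 and 5.11. Between the control sets all 22 were higher in the 20-day set too, with a median of 4.16. Of the other 4, Cd68 and Clec7a had no probe under a RefSeq name, and Cd163 and Cx3cr1 were not above background on all arrays of any group. Of the 22 tested, 19 were above background on all 4 Gy arrays as well, and 2 were on none of them and entered the test through the 20-day arrays. The summed signal of the markers was 3.92 to 4.73 times the 75th percentile on the 4 Gy arrays and 68.5 to 84.7 times on the 8 Gy arrays. In RNA of whole cultures, fewer cells of a type and less RNA per cell cannot be told apart.

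Ptprc, the pan-leukocyte phosphatase CD45, lay at -4.39, -4.24, -4.56, -4.54 and -4.35 on the 4 Gy arrays 1 to 5 and at 0.17, 0.25, 0.28, 0.35 and 0.16 on the 8 Gy arrays. The groups were separated by more than 4 log2 units, and no array of either stood apart. The difference was 4.66 ± 0.11 (SE; 25.2-fold, adjusted p = 1.98e-16). Csf1r, the receptor that macrophages need to survive, lay at -2.37, -2.58, -2.40, -2.47 and -2.18 with 4 Gy serum and at 1.04, 1.06, 1.15, 1.37 and 0.93 with 8 Gy serum. Again every 8 Gy array was above every 4 Gy array, with a difference of 3.51 ± 0.13 (11.4-fold, adjusted p = 4.45e-14), and of 2.54 by a second probe. Adgre1, which encodes the macrophage surface protein F4/80, lay at -1.51, -1.72, -2.16, -2.09 and -1.73 and at 3.10, 3.07, 2.88, 2.94 and 2.84, a difference of 4.80 ± 0.13 (27.9-fold, adjusted p = 1.2e-14). Tyrobp, the adaptor that carries the signal of many myeloid receptors, went from -2.52 to -2.12 to 2.45 to 3.10 (5.11, 34.5-fold, adjusted p = 4.65e-16).

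Spi1, the gene of PU.1 itself, was not well above background on any 4 Gy array, where its values were -8.80, -7.65, -6.49, -6.70 and -7.53. On the 8 Gy arrays it was above background on all 5, at -3.90, -3.84, -3.62, -3.62 and -3.95, at least 6.42-fold higher (adjusted p = 1.29e-07). A bound of this kind sets the mean of the bright group against the lowest signal that the arrays of the dim group measured above background. Lysozyme (Lyz2), an antibacterial enzyme of phagocytes, differed by 4.63 (adjusted p = 1.4e-14), the scavenger receptor Msr1 by 4.75 (adjusted p = 4.62e-14), the lipid sensor Trem2 by 4.49 (adjusted p = 3.46e-15) and the mannose receptor Mrc1 by 3.58 (adjusted p = 1.72e-12). The complement chains C1qa (4.06, adjusted p = 1.89e-15) and C1qc (4.27, adjusted p = 2e-13) were also higher, and so was Cd53 (3.46, adjusted p = 3.59e-15).

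**Figure D1:**
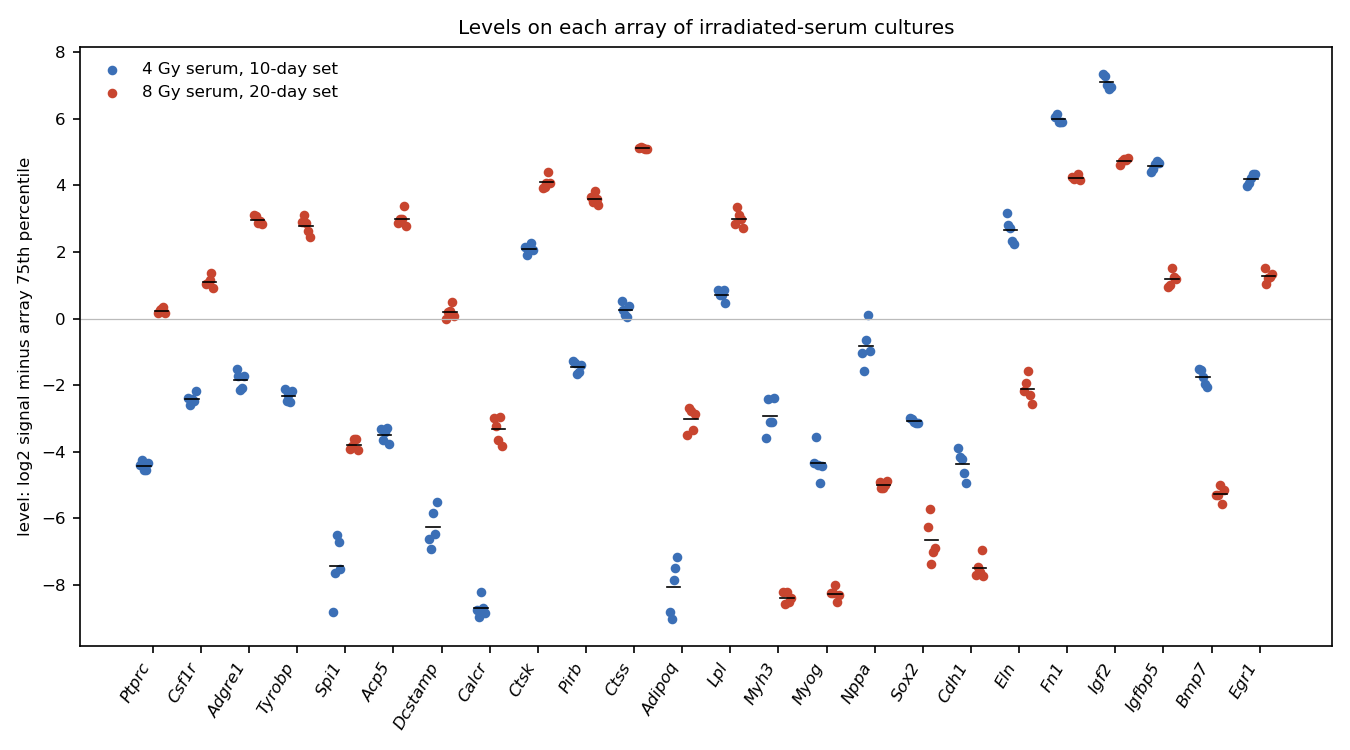
Level of 24 genes on each of the 10 arrays with irradiated serum (points; log2 processed signal relative to the array's 75th percentile) with the mean of each group (bar), blue for 4 Gy serum of the 10-day set and red for 8 Gy serum of the 20-day set. Genes from Ptprc to Lpl are higher and genes from Myh3 to Egr1 lower on every 8 Gy array than on any 4 Gy array; values near -8, as for Calcr with 4 Gy serum, are not above background.

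Genes of osteoclasts were higher for the most part. Of 11 listed osteoclast markers, all tested, 9 were higher and 1 lower, with a median of 2.95, and their summed signal was 7.04 to 8.68 times the 75th percentile with 4 Gy serum and 31.2 to 44.8 times with 8 Gy serum. Of the 11, 8 were above background on all 4 Gy arrays and 2 on none. Over probes above background on all 10 arrays 6 of 8 were higher with a median of 1.90, and over all 11 the median was 1.85 with normexp and 4.69 with probes averaged. Acp5, the tartrate-resistant acid phosphatase by which osteoclasts are stained, lay at -3.31, -3.64, -3.41, -3.27 and -3.77 with 4 Gy serum and at 2.87, 3.0, 2.99, 3.38 and 2.77 with 8 Gy serum. It was 89.1-fold higher (6.48 ± 0.19, adjusted p = 2.08e-15), with no overlap.

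Dcstamp, a membrane protein needed for the fusion of osteoclast precursors, lay at -6.63, -6.90, -5.83, -6.46 and -5.50 with 4 Gy serum, where 1 of 5 arrays was above background, and at -0.01, 0.19, 0.24, 0.50 and 0.08 with 8 Gy serum (6.47 ± 0.26, 88.3-fold, adjusted p = 2.21e-13). Atp6v0d2, a subunit of the proton pump that acidifies the resorption pit, was above background on no 4 Gy array and lay at -2.71, -2.36, -2.43, -1.79 and -2.03 with 8 Gy serum, at least 18.4-fold higher (adjusted p = 4.64e-15). The calcitonin receptor Calcr, found on mature osteoclasts, was likewise above background on the 8 Gy arrays alone of these 10 (-3.83 to -2.96, at least 8.83-fold higher, adjusted p = 1.5e-11).

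The proteases of bone resorption were higher too. Cathepsin K (Ctsk), the main collagen-degrading enzyme of osteoclasts, had already a level of 1.90 to 2.27 with 4 Gy serum and reached 3.94 to 4.41 with 8 Gy serum (2.0 ± 0.11, 3.99-fold, adjusted p = 1.87e-11). The gelatinase Mmp9 lay at -3.28, -3.19, -2.86, -1.48 and -1.71 and at 2.13, 2.19, 2.27, 2.90 and 2.04 (4.81 ± 0.44, adjusted p = 3.57e-08). Its 4 Gy arrays 4 and 5 were more than 1 log2 unit above arrays 1 to 3, and without the 3 arrays of slide 3 the difference was 5.54. Ocstamp, another fusion factor, differed by 2.95 (adjusted p = 1.52e-09) by the brightest probe and by 7.58 by a second one. Nfatc1, the master transcription factor of osteoclasts, differed by 0.28 ± 0.08 (adjusted p = 0.00727), a call lost with slide as a random block (adjusted p = 0.0506), on averaged slides (adjusted p = 0.114) and without the 8 Gy arrays of slide 6 (adjusted p = 0.0976), and by 1.43 by its other probe. The RANK receptor Tnfrsf11a differed by 1.81 (adjusted p = 5e-11), while the integrin chain Itgb3 was lower (-0.48, adjusted p = 0.00748) and the receptor Oscar did not pass (-0.45, adjusted p = 0.0596). The call of Itgb3, the 1 lower marker, was lost with slide as a random block (adjusted p = 0.0804), on averaged slides (adjusted p = 0.103) and without the arrays of slide 3 or 6 (adjusted p = 0.202 and 0.156).

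Receptors by which myeloid cells read antibodies, sugars and other ligands were higher as well. All 22 tested of 24 listed Fc and paired myeloid receptors were higher, with a median of 3.87. Of the 22, 17 were above background on all 4 Gy arrays and 3 on none. Over probes above background on all 10 arrays all 17 were higher with a median of 3.89. The C-type lectin receptor Clec4a2 lay at -3.93, -4.53, -4.36, -4.11 and -4.0 and at 2.31, 2.35, 2.38, 2.27 and 2.07, and had the smallest p of the list (6.46 ± 0.11, 88.1-fold, adjusted p = 5.16e-18). Pirb, whose promoter is shown above, lay at -1.29, -1.34, -1.65, -1.61 and -1.38 and at 3.66, 3.51, 3.83, 3.59 and 3.41 (5.05 ± 0.12, 33.2-fold, adjusted p = 2.07e-16). The Fc receptor gamma chain Fcer1g and the low-affinity IgG receptor Fcgr3 differed by 3.85 (adjusted p = 2.07e-16) and 4.23 (adjusted p = 1.63e-15).

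Fxyd2, a regulator of the sodium pump known best from kidney, was 1 of the 10 genes with a symbol and the highest fitted differences, an order that rests on signals below background where a gene was not measured with 4 Gy serum. It lay at -1.17, -1.24, -0.82, -0.81 and -1.11 with 8 Gy serum and was above background on no 4 Gy array (-8.76, -8.94, -6.77, -8.53 and -8.82), at least 43.4-fold higher (adjusted p = 2.73e-13). Of the other 9 genes, 4 are C-type lectins. Clec4b1 was above background on 4 of 5 arrays with 4 Gy serum and differed by 6.68 ± 0.21 (103-fold, adjusted p = 5.99e-15), and Clec10a and the Langerhans cell lectin Cd207 were at least 13.6-fold (adjusted p = 2.4e-11) and at least 17.2-fold (adjusted p = 2.89e-12) higher. The folate receptor Folr2, carried by tissue macrophages, differed by 6.07 ± 0.20 (67.1-fold, adjusted p = 7.95e-15). Mmp12, the macrophage elastase, was at least 12.2-fold higher (adjusted p = 3.66e-10), while elastin, its substrate, was lower. In the list of matrix proteases and inhibitors 7 of 23 were higher and 7 lower (30.4% each), near the 29.2% and 28.8% of all genes, with 4 lower on averaged slides. Timp3, an inhibitor of metalloproteases, was at -0.92 ± 0.09 (adjusted p = 4.82e-08).

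Chemokines, which draw leukocytes to a tissue, were mostly higher. Of the CC chemokines 11 of 15 tested were higher and 2 lower (median 1.51), and of the CXC chemokines 7 of 11 were higher and 0 lower (median 1.07). Ccl9 lay at -1.05, -1.40, -1.16, -1.11 and -0.95 with 4 Gy serum and at 3.33, 3.56, 3.57, 3.81 and 3.64 with 8 Gy serum (4.72 ± 0.14, 26.3-fold, adjusted p = 1.88e-15). Ccl6 (4.92, adjusted p = 1.15e-12), Ccl3 (3.95, adjusted p = 3.84e-11) and platelet factor 4 (Pf4; 4.41, adjusted p = 1.15e-12), all made by macrophages, were higher as well. Ccl24 and the B cell attractant Cxcl13 were above background with 8 Gy serum but on no 4 Gy array, at least 4.64-fold (adjusted p = 4.89e-10) and at least 4.34-fold (adjusted p = 3.05e-07) higher.

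Ccl2, which attracts monocytes, lay at 3.28, 3.26, 3.55, 4.31 and 4.13 with 4 Gy serum and at 4.87, 5.50, 5.08, 5.53 and 5.10 with 8 Gy serum (1.51 ± 0.27, 2.85-fold, adjusted p = 0.000121). Cxcl12, the stromal factor that holds blood precursors, differed by 1.15 ± 0.12 (adjusted p = 1.89e-07), and the membrane-bound Cxcl16 by 1.86 ± 0.19 (adjusted p = 1.7e-07).

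Among genes of inflammation the list of NF-kB and cytokine genes had 8 of 20 higher and 2 lower, with a median of 0.27. The share of 8 in 20 stands against 29.2% of all genes. Tnf, the macrophage cytokine, was above background on no 4 Gy array (-7.19 to -6.52) and lay at -3.44 to -3.20 with 8 Gy serum, at least 8.78-fold higher (adjusted p = 3.03e-14). The adaptor Traf1 differed by 3.36 (adjusted p = 4.05e-10), Il18 by 1.05 (adjusted p = 3.27e-08) and the NF-kB inhibitor Nfkbia by 0.76 (adjusted p = 1.21e-06). Il6 lay at -0.91, -0.31, -0.49, 0.30 and 0.63 and at 0.12, 0.29, 0.28, 0.82 and 0.82, so that both groups overlapped, and did not pass (0.62 ± 0.35, adjusted p = 0.135).

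Genes of pattern recognition and complement were mostly higher. Of 13 tested Toll-like receptor genes 9 were higher and 1 lower (median 0.67), led by the lipopolysaccharide coreceptor Cd14 (3.31, adjusted p = 1.86e-15), its partner Ly96 (1.38, adjusted p = 5.82e-11), Tlr7 (3.73, adjusted p = 2.14e-10) and Tlr2 (1.86, adjusted p = 4.21e-10). Complement had 14 of 19 higher and 0 lower (median 1.02). Properdin (Cfp), which stabilises the alternative pathway convertase, lay at -0.39 to -0.17 and at 3.21 to 3.36 (3.57 ± 0.13, 11.9-fold, adjusted p = 4.54e-14). The complement receptor chain Itgax was at least 3.65-fold higher (adjusted p = 6.29e-13), with no 4 Gy array above background.

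Lysosomal, antigen presentation and interferon genes were higher in part. Of 29 lysosomal genes 16 were higher and 2 lower with a median of 0.43, but 8 were lower with cyclic loess normalization, where the median was 0.22. Ctss lay at 0.54, 0.25, 0.11, 0.06 and 0.39 with 4 Gy serum and at 5.12, 5.14, 5.11, 5.08 and 5.10 with 8 Gy serum (4.84 ± 0.11, 28.7-fold, adjusted p = 1.98e-16), while the ubiquitous Ctsb differed by 1.04 ± 0.07 (adjusted p = 3.7e-10). Of 16 tested MHC class I genes 13 were higher and 2 lower (median 0.65, 0.43 with cyclic loess), with H2-M3 (1.17, adjusted p = 7.94e-10) and the immunoproteasome subunit Psmb8 (1.28, adjusted p = 6.09e-07) among them. On averaged slides 8 of the 16 were higher. Of 32 tested interferon-stimulated genes 13 were higher (40.6%, against 29.2% of all genes) and 3 lower (median 0.49), with the largest values for Trim30a (3.38, adjusted p = 4.36e-12) and Oas2 (2.07, adjusted p = 4.76e-06). With slide as a random block 9 of the 32 were higher and on averaged slides 11. Without the arrays of slide 2 or of slide 6 there were 10 each time. The iron transporter of phagosomes Slc11a1 differed by 4.15 ± 0.11 (17.8-fold, adjusted p = 8.29e-16).

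Markers of other blood cells were mostly not measurable. Of 12 listed lymphocyte markers 10, among them Cd79a, Cd4 and Cd8a, were not above background on all arrays of any group, and of 12 mast cell and granulocyte markers 3 were tested and 1 was higher, S100a8, a calcium-binding protein of granulocytes (3.47, adjusted p = 2.57e-06). With quantile or cyclic loess normalization 2 of the 3 were higher. All 4 tested of 12 erythroid and megakaryocyte markers were higher, Pf4 among them. The embryonic globin Hbb-bh1 was above background on no 4 Gy array and on 4 of 5 arrays with 8 Gy serum, at least 1.38-fold higher (adjusted p = 0.00238), a call lost on averaged slides (adjusted p = 0.117). Gata1 and Hba-a1 were not above background on all arrays of any group. The part of other blood cells in the results was not tested.

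Fat cell genes were higher too. All 12 adipocyte markers were higher with a median of 2.41, but 8 of the 12 were above background on all 4 Gy arrays and 3 on none, so that these 3 entered the test through the 20-day arrays. The 8 were all higher with a median of 1.97. Over all 12 the median was 1.57 with normexp, where 11 were higher, and 10 were higher on averaged slides. Their summed signal was 7.39 to 10.9 times the 75th percentile with 4 Gy serum and 42.5 to 49.5 times with 8 Gy serum. Pparg, the nuclear receptor that drives adipocyte formation, lay at -1.88, -2.04, -2.0, -2.09 and -2.24 and at 0.05, -0.04, -0.05, -0.47 and -0.34 (1.88 ± 0.11, 3.68-fold, adjusted p = 5.13e-11). The hormone adiponectin (Adipoq) was above background on no 4 Gy array and lay at -3.49, -2.68, -2.77, -3.34 and -2.86 with 8 Gy serum, at least 10.9-fold higher (adjusted p = 5.11e-11), and adipsin (Cfd) was at least 6.04-fold higher (adjusted p = 4.66e-10). With normexp, which lifts dim signals, the fitted differences of Adipoq, Cfd and Spi1, which rest on 4 Gy signals below background, were 1.78, 1.32 and 1.31, and without the 4 Gy arrays of slide 3 they were 5.88, 4.98 and 4.43. Lipoprotein lipase (Lpl), which macrophages make too, differed by 2.28 ± 0.16 (4.86-fold, adjusted p = 9.41e-10).

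Alpha-fetoprotein and haptoglobin, secreted proteins usually made by liver, were higher as well. Alpha-fetoprotein (Afp), named here after its values were seen, was above background on no 4 Gy array and lay at -2.72, -2.43, -2.62, -2.61 and -2.64 with 8 Gy serum, at least 14.6-fold higher (adjusted p = 5.28e-15). It was the 1 of 8 hepatocyte markers that was tested; Alb, Ttr, Apoa1 and Hnf4a were not above background on all arrays of any group. Haptoglobin (Hp), an acute phase protein that fat cells also make, lay at -1.35, -1.15, -0.32, 0.87 and 0.58 with 4 Gy serum and at 3.15, 3.72, 3.69, 3.76 and 3.37 with 8 Gy serum (3.81 ± 0.60, adjusted p = 2.87e-05). Its 4 Gy arrays spread over more than 2 log2 units, and the difference was 3.16 without the arrays of slide 2 and 4.79 without those of slide 3. The metalloreductase Steap4 differed by 1.98 ± 0.40 (adjusted p = 0.000337). Of 11 tested acute phase genes 5 were higher (45.5%, against 29.2% of all genes) and 1 lower. With slide as a random block, on averaged slides and without the arrays of slide 2 or 6, 3 were higher, and the median of 0.85 was 0.46 without slide 2 and 1.48 without slide 3.

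Muscle genes were lower for the most part. Of 16 tested striated muscle markers 12 were lower and 2 higher, where 28.8% of all genes were lower, with a median of -1.65, and their summed signal was 56.2 to 68.8 times the 75th percentile with 4 Gy serum and 17.5 to 31.3 times with 8 Gy serum. On the 8 Gy arrays 10 of the 16 were above background throughout and 4 nowhere. Over probes above background on all 10 arrays 6 of 10 were lower with a median of -1.07, and the median of all 16 was -0.57 with normexp. Myh3, the embryonic myosin heavy chain, lay at -3.59, -2.41, -3.11, -3.12 and -2.39 with 4 Gy serum and was above background on no 8 Gy array (-8.20, -8.56, -8.22, -8.50 and -8.39). It was at least 9.66-fold lower (adjusted p = 4.94e-13). Myogenin (Myog), the transcription factor that commits myoblasts to fuse, lay at -4.34, -3.56, -4.39, -4.93 and -4.43 with 4 Gy serum, was above background on no 8 Gy array and was at least 3.65-fold lower (adjusted p = 3.04e-12).

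The contractile genes of skeletal muscle and of heart were low together. The fast troponin C Tnnc2 lay at -2.60 to -1.76 and at -5.12 to -4.32 (-2.65 ± 0.18, 6.27-fold lower, adjusted p = 5.03e-10), and the alkali light chain Myl1, above background on 1 of 5 arrays with 8 Gy serum, differed by -4.44 ± 0.33 (adjusted p = 2.02e-09). Among heart genes, the alpha myosin heavy chain Myh6 was at least 6.85-fold lower (adjusted p = 1.65e-12). The atrial peptide Nppa lay at -1.03, -1.56, -0.65, 0.12 and -0.96 with 4 Gy serum and at -4.91, -5.10, -5.09, -4.99 and -4.86 with 8 Gy serum (-4.18 ± 0.26, adjusted p = 9.97e-11), and the atrial light chain Myl7 differed by -4.09 ± 0.16 (adjusted p = 1.68e-13).

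Of 11 smooth muscle and myofibroblast genes 6 were lower and 1 higher (median -0.40, -0.76 with cyclic loess). The smooth muscle myosin Myh11 differed by -1.82 ± 0.18 (3.52-fold lower, adjusted p = 1.1e-07) and desmin (Des) by -1.29 ± 0.10 (adjusted p = 4.73e-09). Acta2, the actin of myofibroblasts, lay at 8.23, 8.10, 8.29, 8.23 and 8.06 and at 7.97, 7.88, 7.73, 7.69 and 7.64 (-0.40 ± 0.08, 1.32-fold lower, adjusted p = 0.000437).

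Genes of neural, epithelial and endothelial cells were also among the low ones. Of 11 tested neural and glial markers 8 were lower and 2 higher (median -1.29, -0.84 with normexp; 8 of the 11 were above background on all 8 Gy arrays), with a summed signal of 23.1 to 26.1 times the 75th percentile with 4 Gy serum and 8.78 to 10.6 times with 8 Gy serum. Sox2, the transcription factor of neural stem cells, lay at -2.97, -3.02, -3.11, -3.13 and -3.15 with 4 Gy serum and, above background on 1 array, at -6.26, -5.72, -7.38, -7.01 and -6.87 with 8 Gy serum (-3.58 ± 0.25, 11.9-fold lower, adjusted p = 6.45e-10). The growth cone protein Gap43 differed by -1.64 (adjusted p = 4.97e-09) and the astrocyte filament Gfap was at least 1.58-fold lower (adjusted p = 3.53e-10; -0.07 and not past the threshold with normexp), while the myelin gene Mbp was 3.17-fold higher (adjusted p = 1.31e-11). Pcdh8, a protocadherin of paraxial mesoderm and brain, and Nsg2, a neuronal endosome protein, were at least 11.7-fold (adjusted p = 3.44e-11) and at least 8.49-fold (adjusted p = 9.72e-11) lower. Foxj1, the switch gene of motile cilia, lay at -1.91, -1.95, -1.91, -1.91 and -1.80 and at -6.63, -5.85, -6.33, -5.63 and -5.33 (-4.05 ± 0.23, adjusted p = 3.45e-11). On 8 Gy arrays 1 and 3 Foxj1 lay under the lowest level measured above background there (-6.17 and -5.97). Its difference thus rests in part on signals below background.

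E-cadherin (Cdh1), the adhesion molecule of epithelia, was above background on all 4 Gy arrays and on no 8 Gy array, at least 3.56-fold lower (adjusted p = 6.15e-10). Its list was mixed, 4 of 10 lower and 2 higher (2 of 8 lower over probes above background on all 10 arrays), and the median of -0.17 became 0.08 with normexp. The keratins Krt15 (-2.56, adjusted p = 0.000155) and Krt17 (-1.42, adjusted p = 2.57e-08) were lower, and Krt5 was lower (-1.16, adjusted p = 6.8e-05) but at 0.0035 with normexp. Of 9 tested endothelial markers 5 were lower and 2 higher. Pecam1 was not above background on all arrays of any group. VE-cadherin (Cdh5), the junction protein of vessel walls, was at least 3.03-fold lower (adjusted p = 3.35e-11), and the sialomucin Emcn, above background on 3 of 5 arrays with 8 Gy serum (-2.78, adjusted p = 2.88e-07), and the VEGF receptor Kdr (-1.27, adjusted p = 1.7e-09) were lower, but von Willebrand factor (Vwf) was higher (1.59, adjusted p = 5.54e-08).

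The matrix made by fibroblasts was lower from collagens to elastic fibres. All 15 tested of 17 listed fibrillar and associated collagens were lower with a median of -0.84, 14 of 15 basement membrane genes were lower and 1 higher (median -0.93), and of 27 matrix glycoprotein and elastic fibre genes 20 were lower and 3 higher (median -0.93). Elastin (Eln) lay at 3.18, 2.81, 2.72, 2.33 and 2.25 with 4 Gy serum and at -2.18, -1.92, -1.57, -2.30 and -2.55 with 8 Gy serum. No other gene described here that stayed above background on all 10 arrays had a lower value than its -4.77 ± 0.24 (27.2-fold lower, adjusted p = 4.93e-12). Fibronectin (Fn1), the main adhesive glycoprotein of fibroblasts, lay at 6.05, 6.13, 5.91, 5.91 and 5.90 and at 4.24, 4.18, 4.25, 4.36 and 4.16 (-1.75 ± 0.09, 3.35-fold lower, adjusted p = 6.86e-12).

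Proteins that assemble elastic fibres and crosslink collagen were low with elastin. Mfap4 differed by -2.0 ± 0.15 (adjusted p = 1.31e-09), the lysyl oxidase Loxl2 by -1.69 ± 0.16 (adjusted p = 5.34e-08), and Adamtsl2, a microfibril protein, was above background on no 8 Gy array and at least 16.4-fold lower (adjusted p = 1.09e-13). Among collagens the fibril-associated Col14a1 (-2.20 ± 0.12, adjusted p = 1.36e-11) and Col11a1 (-1.95 ± 0.12, adjusted p = 8.43e-11) were at the low end, followed by Col6a2 (-1.38, adjusted p = 6.81e-09) and Col5a1 (-1.22, adjusted p = 5.13e-09). By second probes Col11a1 differed by -1.01 and Col5a1 by -1.53. By their brightest probes the chains of type I collagen differed less. Col1a2 lay at 8.24 to 8.47 and at 7.51 to 7.70 (-0.78, adjusted p = 1.08e-07), and Col1a1 at 7.12 to 7.39 and at 6.80 to 6.89 (-0.45, adjusted p = 3.05e-05), with -1.28 and -2.05 by its other probes. In basement membranes the laminin chain Lama1 differed by -2.77 ± 0.14 (adjusted p = 6.86e-12) and Col4a1 by -1.37 ± 0.13 (adjusted p = 7.25e-08).

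Markers of fibroblasts were lower for the most part. Of the 20 fibroblast markers 12 were lower and 4 higher (median -0.52), with differences between -1.745 and 0.774. The fibroblast markers named next were picked after their values were seen, and none of them is among the 12 lower ones. The transcription factor Prrx1 (0.50, adjusted p = 0.00107) and the proteoglycan lumican (Lum; 0.67, adjusted p = 0.000783) were among the higher ones (Prrx1 not without the arrays of slide 6, adjusted p = 0.105), and Thy1 (-0.15, adjusted p = 0.273) and decorin (Dcn; 0.11, adjusted p = 0.393) did not pass. Of 10 tested cartilage and bone markers 7 were lower and 2 higher (median -0.65, -0.26 with normexp). Aggrecan (Acan; -1.36, adjusted p = 1.5e-06) and type II collagen (Col2a1; -1.54, adjusted p = 4.95e-06) were lower and Comp was higher (0.96, adjusted p = 0.000163).

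Imprinted genes, some of which are active in the fetus and fall silent after birth, were lower for the most part. Of 15 tested 11 were lower and 0 higher, with a median of -1.0. Igf2, the fetal growth factor, lay at 7.34, 7.27, 7.03, 6.91 and 6.94 with 4 Gy serum and at 4.62, 4.74, 4.80, 4.77 and 4.81 with 8 Gy serum (-2.35 ± 0.11, 5.11-fold lower, adjusted p = 2.3e-12). Nnat (-2.21, adjusted p = 1.19e-11), the zinc finger gene Plagl1 (-1.83, adjusted p = 1.8e-11) and Dlk1, which holds back fat cell formation (-1.26, adjusted p = 3.57e-10), were lower with it. The binding proteins that carry IGF outside the cell were low too: Igfbp5 lay at 4.40, 4.50, 4.65, 4.73 and 4.68 and at 0.94, 1.01, 1.53, 1.24 and 1.18 (-3.41 ± 0.13, 10.7-fold lower, adjusted p = 9.25e-14), and Igfbp3 differed by -2.13 ± 0.17 (adjusted p = 7.37e-09). In the IGF list 9 of 13 genes were lower and 1 higher.

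Signals that pattern the embryo followed the same direction. Of 26 TGF-beta and BMP genes 14 were lower and 1 higher. Bmp7 lay at -1.51, -1.54, -1.74, -1.95 and -2.07 and at -5.29, -5.31, -4.98, -5.58 and -5.16 (-3.50 ± 0.13, 11.3-fold lower, adjusted p = 4.42e-14) and Bmp6 differed by -1.25 (adjusted p = 1.47e-08). The 1 higher gene was Grem1, an antagonist that binds BMPs outside the cell, at 0.09, 0.44, 0.25, 0.43 and 0.52 with 4 Gy serum and 1.82, 1.81, 1.89, 1.46 and 1.78 with 8 Gy serum (1.41 ± 0.14, 2.65-fold higher, adjusted p = 6.38e-08). Of 19 Wnt ligands and secreted antagonists 13 were lower and 2 higher (median -0.72, -0.43 with normexp), among them the ligands Wnt6 (-1.85, adjusted p = 5.14e-07) and Wnt11 (-1.02, adjusted p = 2.65e-08). The antagonist Dkk1, above background on 1 of 5 arrays with 8 Gy serum, was lower too (-2.18, adjusted p = 2.05e-08).

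Hox genes, which record the position of a cell along the body and limb axes, were lower for the most part in every cluster. In HoxA 8 of 11 tested genes were lower and 1 higher, in HoxB 8 of 9 lower and 0 higher, in HoxC 6 of 6 lower and in HoxD 4 of 7 lower and 1 higher. Without the 4 Gy arrays of slide 3, the numbers lower were 4 of 11 in HoxA, 3 of 9 in HoxB and 2 of 7 in HoxD, with 0 higher in HoxD, and without the 8 Gy arrays of slide 6, 5 of 9 in HoxB. On averaged slides they were 4, 4 and 2 in HoxA, HoxB and HoxD, and with normexp 5 in HoxA and 2 in HoxD. The medians of HoxA, HoxB, HoxC and HoxD were -0.45, -0.71, -1.37 and -0.37, and with normexp -0.24, -0.43, -0.40 and -0.14. The last genes of HoxC, which are active at the tail end of the body, were among the lower ones. Hoxc10 lay at -1.63, -1.54, -1.55, -1.63 and -1.59 with 4 Gy serum and at -3.39, -3.43, -3.30, -3.41 and -3.13 with 8 Gy serum (-1.74 ± 0.10, 3.35-fold lower, adjusted p = 2.12e-11). Hoxc12 and Hoxc13 were above background on no 8 Gy array, at least 4.02-fold (adjusted p = 4.01e-08) and at least 2.19-fold (adjusted p = 5.86e-07) lower, although Hoxc13 was at -0.02 with normexp.

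Hoxb13, above background on 3 of 5 arrays with 8 Gy serum, was lower (-2.56 ± 0.26, adjusted p = 1.16e-07), and Hoxa5 (-1.09, adjusted p = 9.12e-07) and Hoxa3 (-1.23, adjusted p = 1.67e-05) had the lowest values of HoxA. Hoxa11 and Hoxd13 went the other way. Hoxa11 lay at 1.04, 1.02, 0.53, 0.57 and 0.76 and at 1.30, 1.28, 1.46, 1.34 and 1.40 (0.57 ± 0.10, adjusted p = 5.75e-05). Hoxd13 lay at 1.79, 1.77, 1.32, 1.21 and 1.28 and at 1.94, 1.97, 1.86, 1.98 and 2.02 (0.48 ± 0.11, adjusted p = 0.00152), but at 0.17 (adjusted p = 0.243) without the 4 Gy arrays of slide 3 and short of the threshold on averaged slides (adjusted p = 0.108). By a second probe Hoxd13 differed by 0.07.

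**Figure D2:**
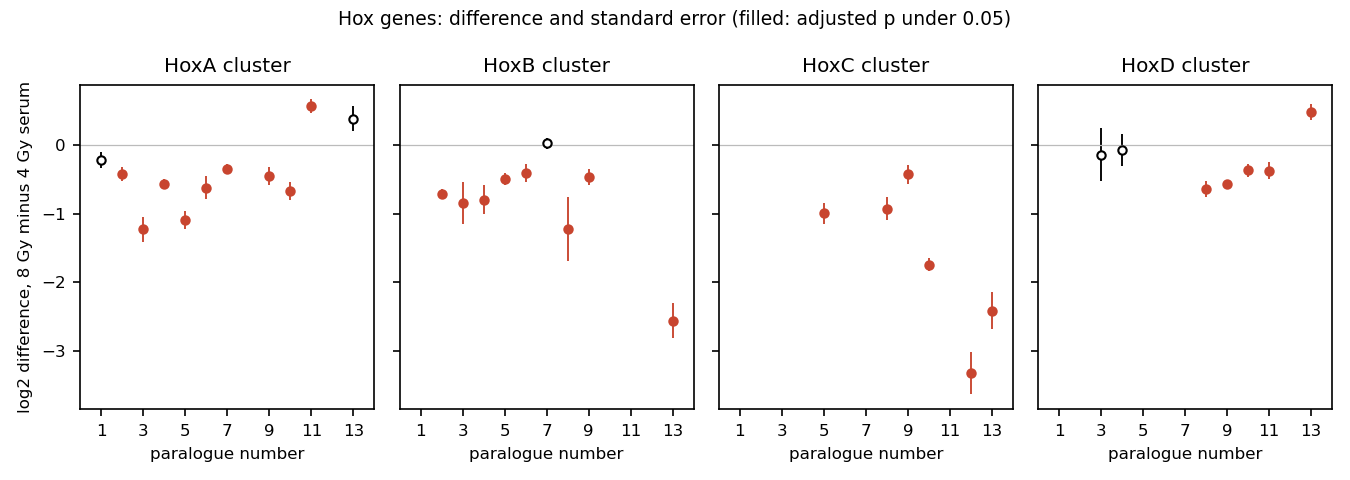
Difference of each tested Hox gene between 8 Gy and 4 Gy serum (vertical axis, log2, with the standard error of the fit as a bar) by its number in the cluster, from the 3′ end at 1 to the 5′ end at 13. Filled red points have an adjusted p under 0.05. The points of Hoxc12 and Hoxc13 are fitted values that rest on 8 Gy signals below background, Hoxc10 is at -1.74, and Hoxa11 and Hoxd13 are the 2 filled points above 0.

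Other transcription factors of limb and mesenchyme were mostly lower, 33 of 43 lower and 5 higher with a median of -0.68. With normexp 22 were lower with a median of -0.37, and on averaged slides 24 were lower. Foxc1, a forkhead factor of mesoderm, differed by -1.17 ± 0.07 (adjusted p = 1.59e-10), the sclerotome factor Pax1 by -1.16 ± 0.09 (adjusted p = 3.21e-09) and Dlx5, which works in bone and limb, by -1.73 ± 0.15 (adjusted p = 1.49e-08).

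Immediate early genes, which respond within minutes to growth factors in serum, were lower with 8 Gy serum. Of 28 tested 21 were lower and 2 higher, with a median of -0.52. Egr1 lay at 3.99, 4.06, 4.22, 4.35 and 4.34 with 4 Gy serum and at 1.53, 1.03, 1.22, 1.26 and 1.34 with 8 Gy serum (-2.92 ± 0.13, 7.56-fold lower, adjusted p = 1.25e-12), and Egr2 differed by -2.88 ± 0.12 (adjusted p = 3.53e-13). The response gene Ier2 (-1.45, adjusted p = 1.01e-10) and Zfp36, which speeds the decay of cytokine mRNAs (-1.70, adjusted p = 5.52e-09), were lower too.

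Cell cycle genes were lower in part. Of 33 DNA replication genes 19 were lower and 0 higher (median -0.35), and of 32 mitosis genes 20 were lower and 0 higher (median -0.50); on averaged slides 10 and 13 were lower. Rrm2, the small subunit of ribonucleotide reductase, lay at 2.68, 2.63, 2.75, 2.86 and 2.72 and at 1.66, 1.52, 1.61, 1.82 and 1.70 (-1.07 ± 0.08, 2.09-fold lower, adjusted p = 2.15e-09). Cyclin E1 (Ccne1; -0.74, adjusted p = 2.86e-08), the mitotic transcription factor Foxm1 (-0.97, adjusted p = 2.82e-07), the kinesin Kif23 (-0.93, adjusted p = 3.21e-07) and the proliferation marker Mki67 (-0.59, adjusted p = 2.08e-05) were lower as well.

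Targets of p53, the factor that answers DNA damage, showed no common direction. Of 28 tested 4 were higher and 11 lower (median -0.07). On averaged slides 3 were lower, with normexp 7, and without the arrays of slide 2, 3 or 6 there were 6, 7 and 6. Cdkn1a, the cell cycle inhibitor p21, lay at 3.43, 3.47, 3.66, 3.61 and 3.68 and at 3.63, 3.59, 3.50, 3.50 and 3.40. Its groups overlapped and it did not pass (-0.05 ± 0.09, adjusted p = 0.657), with a sign that turned when arrays were scaled to the median (0.01). Bax, a promoter of apoptosis, was higher (0.59, adjusted p = 1.58e-06), and Sesn2 was lower (-0.51, adjusted p = 1.76e-06).

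Genes of energy and protein turnover were higher by less than 2-fold in most cases. All 38 oxidative phosphorylation genes had positive differences and 35 were higher (median 0.53); 23 were higher with quantile normalization and 22 with cyclic loess, and 19 on averaged slides. Ndufc1 (1.01, adjusted p = 2.54e-08) and Ndufb5 (1.0, adjusted p = 1.72e-07), subunits of respiratory complex I, were among them. Of 31 proteasome genes 23 were higher and 0 lower (median 0.47, 0.27 with cyclic loess), with Psma3 at 0.90 ± 0.09 (adjusted p = 1.3e-07). Of 39 cytosolic ribosomal protein genes 24 were higher and 0 lower (median 0.35), but 7 were higher and 4 lower with cyclic loess, where the median was 0.03. With quantile normalization 12 were higher, with slide as a random block 14, on averaged slides 6 and without the arrays of slide 3 or of slide 6, 11 each time. Rpl18 differed by 0.71 ± 0.09 (adjusted p = 1.03e-06).

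Stress and sterol genes went in different directions. Of 30 NRF2 and glutathione genes 18 were higher and 5 lower (median 0.40, 0.25 with cyclic loess), 10 higher on averaged slides and 12 without the arrays of slide 6, with Gsta4, a glutathione transferase for lipid peroxides (1.67, adjusted p = 3.07e-11), heme oxygenase Hmox1 (1.17, adjusted p = 2.07e-07) and G6pdx (0.98, adjusted p = 7.15e-08) among the higher ones. Of 21 unfolded protein response genes 11 were lower and 1 higher (median -0.33; 6 lower on averaged slides), including Sel1l (-0.89, adjusted p = 3.13e-06) and the protein disulfide isomerase Pdia4 (-0.86, adjusted p = 5.15e-05). Of 23 cholesterol synthesis genes 12 were higher and 4 lower, while 7 were higher with slide as a random block, 6 on averaged slides, and 6 and 8 without the arrays of slide 3 and slide 6. The desaturase Sc5d was higher (1.13, adjusted p = 2.63e-09), and Hmgcs1 did not pass (0.08 ± 0.10, adjusted p = 0.518), with a value of -0.11 under quantile normalization.

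Further lists showed smaller or divided changes. Of 30 glycolysis and hypoxia genes 12 were higher and 9 lower. The glucose transporter Slc2a3 (-2.08, adjusted p = 7.56e-12) and Egln3, an oxygen-sensing hydroxylase (-1.64, adjusted p = 7.65e-11), were lower. Of 17 fatty acid synthesis genes 9 were lower and 1 higher (4 lower on averaged slides), with Thrsp, a lipogenic nuclear protein, at -2.63 ± 0.22 (adjusted p = 1.26e-08). Of 18 circadian clock genes 10 were lower and 2 higher, among them the repressors Per1 (-0.73, adjusted p = 0.00119) and Cry1 (-0.74, adjusted p = 5.68e-06). Of the clock genes 5 were lower with normexp, with slide as a random block and without the arrays of slide 3, 6 without those of slide 6 and 2 on averaged slides. The call of Per1 was lost on averaged slides (adjusted p = 0.0602) and that of Cry1 with normexp (adjusted p = 0.0504). Of 16 senescence regulators 5 were lower and 3 higher (31.2% and 18.8%), not above the shares of all genes by much or at all, and 3 were lower on averaged slides. The nuclear lamin Lmnb1 (-1.04, adjusted p = 3.99e-07) and the histone methyltransferase Ezh2 (-0.73, adjusted p = 1.38e-07) were lower and the chromatin protein Hmga2 was higher (0.66, adjusted p = 2.87e-05). Of 16 heat shock genes 6 were higher and 1 lower, with 3 higher under quantile or cyclic loess normalization, with slide as a random block and on averaged slides, and 2 without the arrays of slide 6. Of 17 metallothionein and iron genes 11 were higher and 2 lower. Of 15 histone genes 3 were higher and 4 lower (20.0% and 26.7%, under the shares of all genes), with 1 lower on averaged slides.

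Glucocorticoid response genes were mixed, 8 of 15 higher and 3 lower, with 5 higher with slide as a random block, on averaged slides and without the arrays of slide 6. The metal-binding protein Mt1 was higher (1.01, adjusted p = 5.42e-05). Fkbp5, a chaperone induced by glucocorticoids, was lower by its brightest probe (-0.92, adjusted p = 6.69e-05) and had differences of -0.90 and 0.63 by its other probes, so that its probes disagree.

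Transcripts of the sex chromosomes differed between both sets of cultures. The Y-linked genes Eif2s3y (1.16, adjusted p = 4.28e-09), Ddx3y (1.14, adjusted p = 3.04e-06) and Kdm5d (0.76, adjusted p = 6.11e-08) were higher with 8 Gy serum, and Xist, the RNA that coats the inactive X chromosome, was lower (-0.79, adjusted p = 0.0157). Eif2s3y lay at 0.21, 0.33, 0.07, -0.14 and 0.04 with 4 Gy serum and at 1.29, 1.29, 1.14, 1.19 and 1.40 with 8 Gy serum, and Xist at -1.48, -0.74, -1.17, -1.19 and -1.03 and at -1.86, -1.91, -1.83, -2.21 and -1.76. The call of Xist was lost with slide as a random block (adjusted p = 0.126) and without the arrays of slide 3, 6 or 7 (adjusted p = 0.108, 0.0827 and 0.0582). The cultures with control serum differed the same way, by 1.65 for Eif2s3y and -1.22 for Xist. The sex of the cells is not given by the labels, and its part in the results was not tested.

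**Figure D3:**
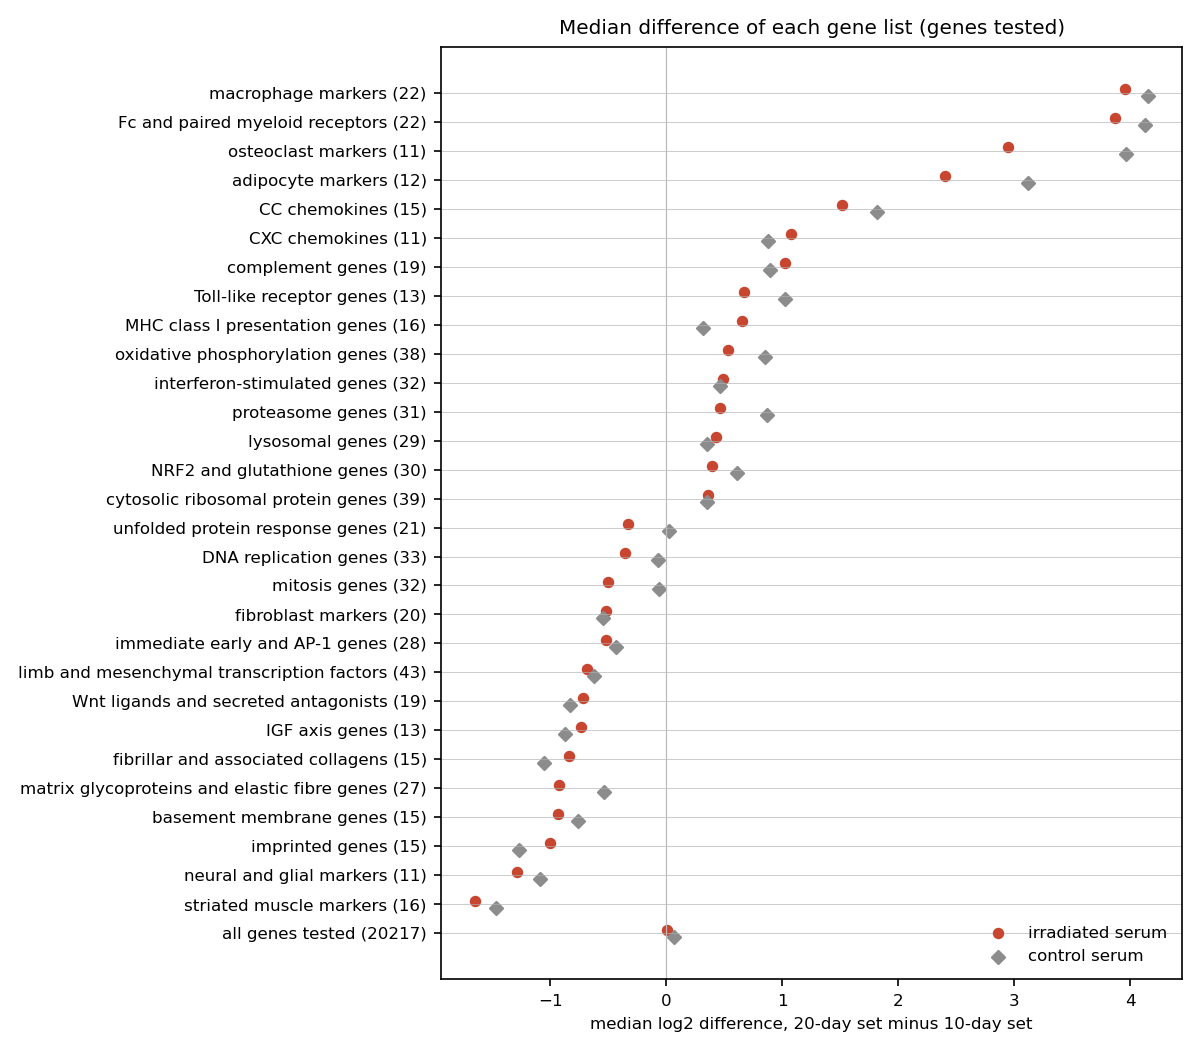
Median log2 difference between the 20-day and the 10-day set for 29 gene lists and for all genes tested, with irradiated serum (red circles) and with control serum (grey diamonds); the number of genes tested is given in brackets. Macrophage markers are at 3.95 and 4.16, striated muscle markers at -1.65 and -1.47, and all genes at 0.002 and 0.07.

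The control cultures of both sets, which share no array with the irradiated ones, differed by as much. Between the control sets 13417 genes (66.4%) differed, 7474 higher (37.0%) and 5943 lower (29.4%) in the 20-day set. With normexp these were 9022 and 4187, and with arrays scaled to the median 8645 and 4852. Of the 242 genes at least 8-fold higher with 8 Gy than with 4 Gy serum, 224 were at least 8-fold higher between the control sets too, which is 92.6% of the first list and 82.1% of the 273 (1.35%) in the second. Of the 63 at least 8-fold lower, 39 were shared (61.9% of the first list and 39.4% of the 99, or 0.49% of all genes, in the second). Over all genes both differences had a Pearson correlation of 0.789, a description over genes, which are not independent, of arrays that share scan days and 1 slide. Ptprc differed by 5.45 between the control sets, Acp5 by 5.99, Pparg by 2.32, Nppa by -3.05, Eln by -4.47 and Igfbp5 by -3.53.

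The difference between both comparisons was tested in the same fit, and 6915 genes (34.2%) passed, 2470 (12.2%) with the higher value among irradiated cultures and 4445 (22.0%) with the lower. With slide as a random block 3623 passed, and on averaged slides 65, of which 58 had the higher and 7 the lower value. The control arrays lay on slides 1 and 2 in the 10-day set and on slides 4 and 5 in the 20-day set. In the 20-day set no slide held both kinds of serum, so slide and serum cannot be told apart in this difference. Of the 22 macrophage markers 7 passed (31.8%), under the 34.2% of all genes. Each of the 7 had a smaller difference between the irradiated than between the control sets, such as Tyrobp (5.11 against 5.96, adjusted p of the difference = 0.00203) and Ptprc (adjusted p = 0.000696). Of 12 adipocyte markers 7 passed, of which 4 were above background on all 20 arrays, 2 with the smaller and 2 with the larger value in irradiated cultures. Pparg is an example of the smaller, with a difference of -0.44 between both comparisons (adjusted p = 0.0347).

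Grem1, Fn1 and desmin differed the other way. Grem1 was higher with 8 Gy serum by 1.41 but differed by 0.12 between the control sets (adjusted p of the difference = 8.26e-05). Fn1 (-1.75 against -2.61, adjusted p = 6.81e-05) and Des (-1.29 against -2.30, adjusted p = 6.45e-05) were less low between the irradiated sets. Among the lists, 12 of 32 mitosis genes (37.5%) and 16 of 33 DNA replication genes (48.5%) passed the test of the difference, against 34.2% of all genes. The share of mitosis genes is thus near that of all genes. The medians of these lists were -0.50 and -0.35 between the irradiated sets and -0.06 and -0.07 between the control sets. For the unfolded protein response 10 of 21 passed, all with the lower value in irradiated cultures, and for the proteasome 18 of 31, 15 of them with the lower value.

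The genes with the 5 highest and 5 lowest values in the test of the difference did not belong to these groups. Lars2, a mitochondrial leucyl-tRNA synthetase, lay at 8.98, 8.98, 9.03, 9.05 and 8.79 and at 9.0, 9.05, 8.98, 8.82 and 8.86 with irradiated serum (-0.02 ± 0.12, adjusted p = 0.873), with groups that overlapped and a value near 0 whose sign turned with other scalings, and differed by -4.01 between the control sets. The 28S ribosomal RNA transcript Rn28s1 differed by -0.50 (adjusted p = 0.221) and -4.89. Syt10, a calcium sensor of secretion, Tfap2e, a transcription factor, and Cdk5r2, an activator of a neuronal kinase, were lower in both comparisons, by -2.30 and -7.47, by -1.64 and -5.37, and by -2.12 and -8.13. Cdk5r2 was measured on 3 of the 5 arrays with 8 Gy serum, and its call was lost without the arrays of slide 7 (adjusted p = 0.064). The call of Tfap2e was lost on averaged slides (adjusted p = 0.143). Tfap2e was at -0.61 (adjusted p = 0.345) without those of slide 6 and at -2.29 without those of slide 3, and Syt10 at -1.71 and -3.06.

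At the other end were Terc, the RNA of telomerase, Dmbx1, a homeobox gene, and the olfactory receptors Olfr1226, Olfr635 and Olfr74, all at levels under -3 on each irradiated array. They were lower with 8 Gy serum, with differences of -1.26 for Olfr1226 (adjusted p = 0.000134), above background on 2 of 5 arrays there, and -1.16 for Terc (adjusted p = 0.012), above background on 3. Dmbx1, Olfr635 and Olfr74 were above background on no 8 Gy array, at least 1.29-fold (adjusted p = 0.0184), at least 1.42-fold (adjusted p = 0.00455) and at least 2.92-fold (adjusted p = 7.52e-05) lower, and the values of Terc and Dmbx1 overlapped between the groups. Between the control sets they were higher, by 1.66 for Terc and 2.20 for Olfr1226. Without the 4 Gy arrays of slide 3, Terc was at -0.41 (adjusted p = 0.497), Dmbx1 at -0.29 (adjusted p = 0.51), Olfr1226 at -0.58 and Olfr74 at -1.07, and without 4 Gy array 4 Dmbx1 did not pass either (adjusted p = 0.0634). With slide as a random block Terc, Dmbx1 and Olfr635 did not pass (adjusted p = 0.0982, 0.0779 and 0.0536), nor on averaged slides (adjusted p = 0.145, 0.152 and 0.118). Without the 8 Gy arrays of slide 6 Dmbx1 (adjusted p = 0.0968) and Olfr635 (adjusted p = 0.0651) did not pass, nor Terc (adjusted p = 0.0729) and Dmbx1 (adjusted p = 0.0547) without those of slide 7, nor Dmbx1 with quantile normalization (adjusted p = 0.0925). With normexp Olfr1226, Olfr74 and Terc did not pass (-0.13, -0.16 and -0.03), and Dmbx1 and Olfr635 were at 0.04 and 0.08. Beside these values stand the replicate-spot variations of 20.4% to 32.5% on the control arrays of the 20-day set. Without both control arrays of that set with a variation over 30%, 7957 genes passed the test of the difference, 3154 higher and 4803 lower. Between the irradiated sets 13158 genes then differed. The part of this variation in the values of the genes named here was not tested.

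**Figure D4:**
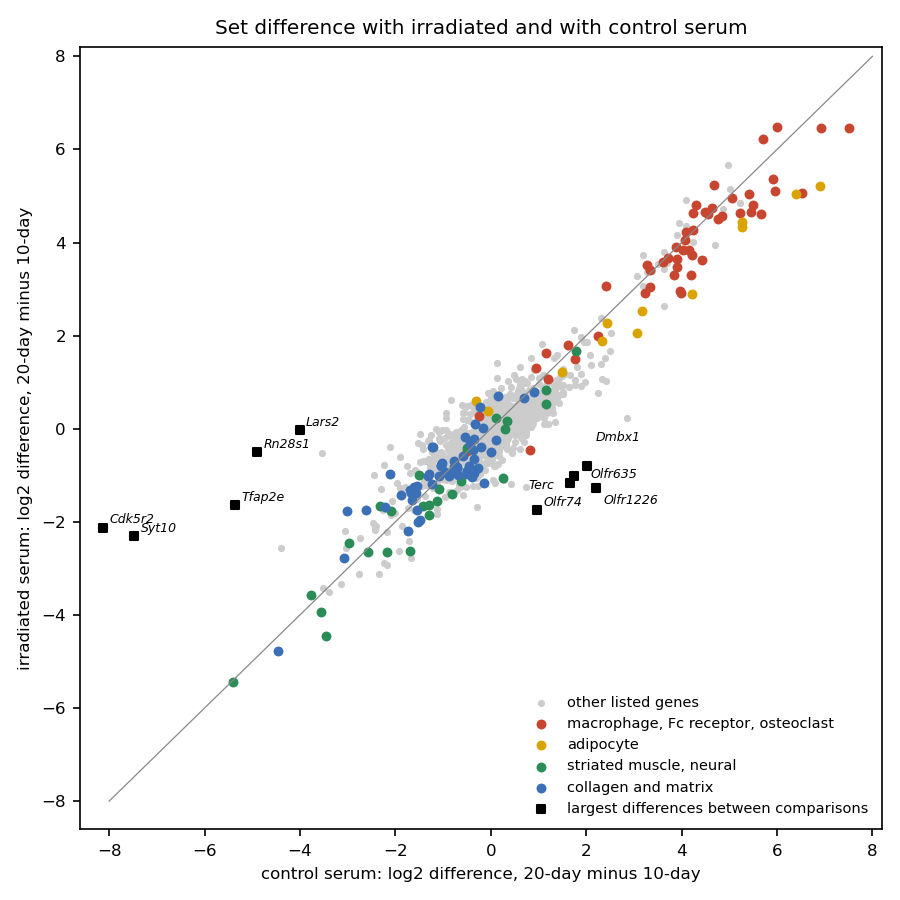
Log2 difference between the 20-day and the 10-day set of each listed gene with irradiated serum (vertical axis) against that with control serum (horizontal axis); the line marks equal values, colours mark gene lists and black squares the 10 genes with the largest differences between both comparisons; values are those of the fit, also where a gene was not above background in a group. Most macrophage, osteoclast and fat genes are at the upper right and most muscle, neural and matrix genes at the lower left; Lars2 is at -0.02 and -4.01.

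By other probes of the same genes, 2771 of 3414 (81.2%) had the direction of the probe used, and of those of genes with at least 4-fold differences 129 of 135 (95.6%).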

How the data were processed

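RNA of 20 cultures was hybridised to 1-colour Agilent arrays. The deposited files hold the intensity of each spot, background-subtracted and detrended per the file headers by Feature Extraction 10.5.1.1 (the submitters' processing notes name 11.0), and deposited marks (other values, 0 or 1) for signal above background and outlier spots. Marked outlier spots were left out, spots of a probe averaged, and log2 intensities reduced by the 75th percentile of the array. A probe was tested if above background on all 5 arrays of a group. The brightest probe stood for its gene; 24844 of 41174 probes had a RefSeq symbol. One limma (3.58.1, R 4.3.3) fit held 4 group means of 5 arrays, with Benjamini-Hochberg adjustment over 20217 genes. On simulated data with independent arrays and few changed genes it recovered known changes. That says nothing about arrays correlated within slides, as in these data (0.353 in the fit with slide as a block). The deposited value table, centred within each set, was not used.

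Named were the 10 highest and 10 lowest differences, the genes of smallest p of each list with at least 3 genes past the threshold, fixed examples, members of the Hox, sex-linked, macrophage and osteoclast lists, and the 5 highest and 5 lowest interactions. Not every gene of this rule is given. Afp, S100a8, Lum, Prrx1, Thy1 and Dcn were named outside it after their values were seen. Lists, members and rule were chosen with earlier results of these data known. Alternatives were normexp with offset 50, other scalings, filters, probe choices, slide as a block and arrays left out.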

Additional observations from a re-analysis of the deposited data

Results flagged for a closer look

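Between both set differences, 6915 genes passed by the interaction term of the main fit (adjusted p under 0.05), 68 of them named in the text. On averaged slides 65 of all genes passed, so these calls depend on how the slides are treated. Which of the named genes passed there is not given. Values are the log2 difference between the irradiated sets minus that between the control sets, so a negative value means less increase or more decrease with irradiated serum. The value was -1.41 for the globin Hbb-bh1. Of the leukocyte and osteoclast genes, the values were -1.28 for Oscar, -1.06 for Clec4b1, -1.03 for Dcstamp, -1.01 for Ocstamp, -0.85 for Tyrobp, -0.82 for Folr2, -0.80 for Ptprc, -0.73 for Ly96, -0.72 for Il18, -0.68 for Adgre1, -0.60 for Lyz2, -0.52 for Cd14, -0.46 for Clec4a2, -0.44 for Cd53, -0.32 for Ctsb and 0.53 for Nfatc1. Of the chemokine, antigen presentation and fat cell genes, the values were -1.36 for Adipoq, -0.72 for H2-M3, -0.44 for Pparg, 0.66 for Cxcl12 and 0.83 for Ccl6. Of the muscle, neural, epithelial and vessel genes, the values were -1.24 for Krt5, -1.12 for Nppa, -1.12 for Pcdh8, -1.01 for Myl7, -0.91 for Gfap, -0.83 for Krt17, -0.78 for Cdh5 and 1.01 for Des. Of the matrix, growth factor and patterning genes, the values were -0.95 for Hoxa3, -0.70 for Plagl1, -0.67 for Timp3, -0.59 for Dlx5, -0.47 for Hoxd13, -0.46 for Col14a1, -0.46 for Col11a1, 0.44 for Dcn, 0.55 for Bmp6, 0.86 for Fn1, 0.92 for Prrx1, 1.28 for Grem1 and 1.84 for Hoxb13. Of the cell cycle, growth response and housekeeping genes, the values were -0.97 for Ndufb5, -0.82 for Gsta4, -0.75 for Psma3, -0.75 for Egr1, -0.64 for Egr2, -0.57 for Kdm5d, -0.51 for Rpl18, -0.49 for Eif2s3y, -0.45 for Hmgcs1, -0.45 for Rrm2, -0.40 for Bax, -0.39 for Ezh2, -0.38 for G6pdx, -0.37 for Sc5d and 0.53 for Sesn2. Of the genes with the largest values, the values were -3.46 for Olfr1226, -2.83 for Terc, -2.81 for Dmbx1, -2.76 for Olfr635, -2.72 for Olfr74, 3.72 for Tfap2e, 3.98 for Lars2, 4.39 for Rn28s1, 5.17 for Syt10 and 6.0 for Cdk5r2. Those of Dcstamp, Adipoq, Pcdh8, Gfap, Cdh5, Hoxb13, Dmbx1, Olfr635, Olfr74 and Hbb-bh1 rest in part on signals below background, since no array of at least 1 group was above it.

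A single array stood apart from the other 4 of its group for 13 of the 370 sets of 5 values checked, where chance gives about 1 in 20. With 8 Gy serum it lay at 1.64 for C1qa (nearest other array 1.77), 2.90 for Mmp9 (nearest other array 2.27), -0.57 for Ocstamp (nearest other array -1.06), 1.46 for Grem1 (nearest other array 1.78), -2.94 for Wnt6 (nearest other array -2.46) and -6.17 for Hbb-bh1 (nearest other array -5.99). With 4 Gy serum it lay at -6.77 for Fxyd2 (nearest other array -8.53), -3.23 for Myh6 (nearest other array -3.45), -0.53 for Myl7 (nearest other array -1.09), -1.80 for Foxj1 (nearest other array -1.91), 3.98 for Ccne1 (nearest other array 4.12), 8.79 for Lars2 (nearest other array 8.98) and 1.74 for Rn28s1 (nearest other array 0.65). No cause was tested.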

How the results depend on the processing

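Between 8 Gy and 4 Gy serum, 11599 genes passed with arrays scaled to the median, 11642 with quantile normalization, 11648 with cyclic loess, 12232 without the filter on dim probes, 13489 in a fit of the 10 arrays compared, 8771 with slide as a random block and 10853 to 12525 when any 1 array was left out. On averaged slides 6706 passed, 3429 higher and 3277 lower, and with normexp 3662 were lower. Left out after the data had been seen, the irradiated arrays of slide 6 gave 3928 genes higher. Without the filter, 11816 genes were higher between the control sets. The interaction fell to 3623 genes with slide as a random block (1323 higher, 2300 lower) and to 65 on averaged slides (58 higher, 7 lower), had 1453 higher without slide 6, and spanned 6108 to 7795 when 1 array was left out. The cause was not tested.

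The replicate numbers did not pair the samples, with correlations of deviations from -0.045 to 0.032, and the replicate block gave 11842 genes.

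Of 185 named genes 177 passed, and 159 of these kept direction and call under all 37 alternatives. The sign turned with normexp for Krt5 (0.0035), Dmbx1 (0.0365), Olfr635 (0.083) and Oscar (0.0023). Other turns were in genes short of the threshold: Cdkn1a with median scaling (0.0142) and without slide 3 (0.072) or 7 (0.0016), Hmgcs1 with quantile (-0.1074) and loess (-0.1226), Dcn likewise (-0.1001 and -0.1772), Thy1 with its probes averaged (0.0645), and Lars2 with median scaling (0.0372), quantile (0.0311) and without slide 7 (0.045), or at -0.0687 to 0.0066 without 1 array. The median of all genes was 0.09 with normexp and 0.064 with median scaling, and between the control sets 0.225 and 0.197 in place of 0.067. Signals not above background limit dim genes to bounds.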
